A study of Homo sapiens with 32 samples.

Results

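The RNA of C4-2 cells was compared with that of LNCaP cells, both carrying a scramble control shRNA. The comparison takes 4 of the 32 libraries in the series, 2 of C4-2 and 2 of LNCaP, picked by the cell line and shRNA given in the labels and joined gene by gene through Ensembl identifiers. The study depleted or inhibited CSN5, the catalytic subunit of the COP9 signalosome, in the human prostate cancer lines LNCaP, C4-2, 22Rv1 and PC3. Libraries were made from total RNA of cells obtained from ATCC, and reads were counted per gene. Neither group compared here was depleted of CSN5 by design, and both had been infected with shRNA vectors. The scramble libraries held 26234285 and 23414844 counts in C4-2 and 30876709 and 28436686 in LNCaP.

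LNCaP is an established line from a lymph node metastasis of prostate cancer that keeps luminal epithelial features and a dependence on androgen. C4-2 was derived from LNCaP by growth in castrated mice together with bone stromal cells, and it grows with little androgen and spreads to bone in mice. The pair is therefore a widely used model of a castration-resistant cell and its parent. As a model it sets 1 derived subline against 1 stock of the parent, and traits of that subline or that stock cannot be told apart from castration resistance.

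A second contrast between the lines came from the inhibitor experiment, whose C4-2 and LNCaP libraries carry the same project letter. There, LNCaP treated with DMSO, the solvent control, has 2 libraries. C4-2 has 2 pairs of libraries whose titles and descriptions name opposite treatments. By its description the titled NT pair received the CSN5 inhibitor CSN5i-3 at 1 µM, and the titled C5i pair received DMSO. Neither pair is called a control here, and both are set against the same 2 LNCaP DMSO libraries, giving a titled NT difference and a titled C5i difference. Lines in that experiment were tabulated with different gene namings, so a single gene can also differ there by how it was counted.

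The labels name separate sequencing projects for the 2 scramble groups, J for LNCaP and L for C4-2. Line and project cannot be told apart in this comparison. The LNCaP scramble libraries also stood apart by base composition. With the genes ordered by the GC content of their longest transcript and cut into 5 groups of equal size, the median log2 difference C4-2 minus LNCaP was 1.04, 0.49, -0.06, -0.55 and -0.76 from the lowest to the highest GC group. A like slope, from 0.74 to -0.74, separated PC3 from LNCaP inside the LNCaP project. Between 22Rv1 and PC3, which come from the 2 different projects, the groups ran only from 0.26 to -0.05. In the inhibitor experiment the slope had the opposite sign, from -0.49 to 0.12 for the titled NT difference. The mean GC content weighted by counts was 50.8% and 50.7% in the LNCaP scramble libraries and between 46.8% and 48.7% in the scramble libraries of the other 3 lines. For this reason most lists below are also given from another fit. In it a smooth trend on GC content and transcript length was taken out of every library. Its values are called trend-removed values. Values of single genes keep the trend unless stated. Some shrank with it removed, such as GCLM (1.45 to 0.46), and others grew, such as KLK3 (0.07 to 0.56).

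**Figure D1:**
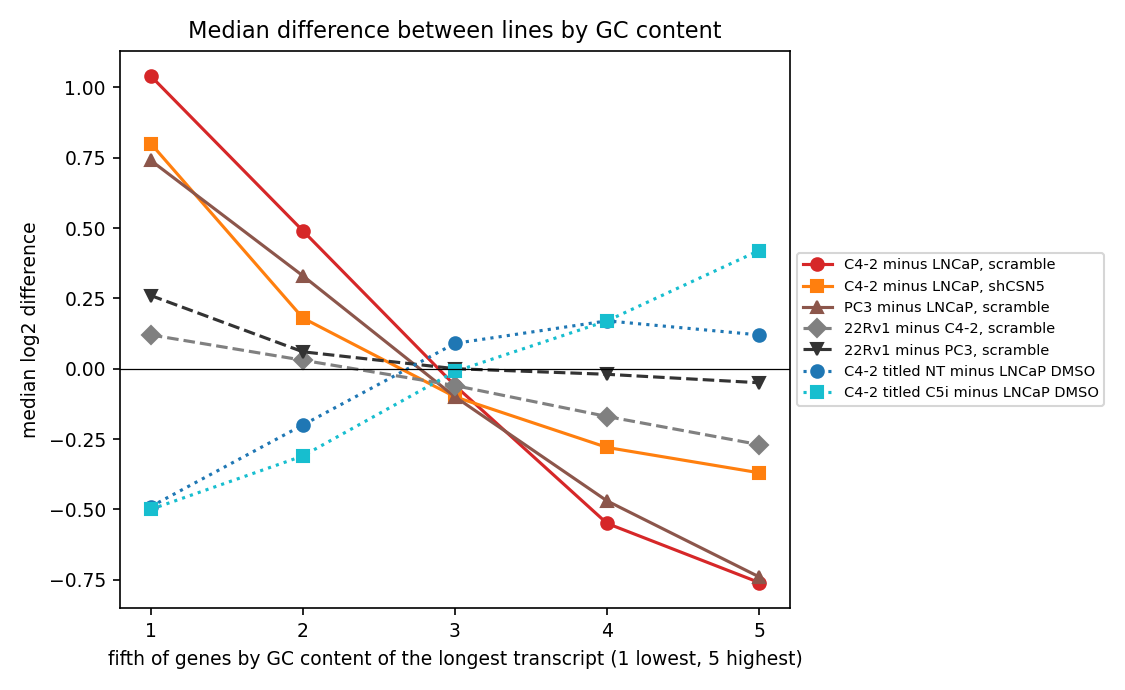
Median log2 difference between lines (vertical axis) in 5 equal groups of genes ordered by transcript GC content (horizontal axis, lowest to highest), 1 line per comparison. The comparisons against LNCaP shRNA libraries fall from the lowest to the highest group (from 1.04 to -0.76 for C4-2 minus LNCaP, scramble), those among the other lines run closer to 0, and the inhibitor experiment rises.

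C4-2 and LNCaP differed at most measured genes. Of 15130 genes tested with edgeR's quasi-likelihood F test, 11097 (73.3%) had a Benjamini-Hochberg adjusted p under 0.05, a gene "called" from here on. Called genes were higher in C4-2 in 5635 cases (37.2%) and lower in 5462 (36.1%). At least 2-fold differences were called for 33.9% of the genes, 3008 higher in C4-2 (19.9%) and 2128 lower (14.1%), and at least 4-fold ones for 8.9%, 841 higher (5.56%) and 506 lower (3.34%). Both libraries of one line lay outside the range of the other for 87.8% of the genes tested. With so many genes called, a list in which about 37% of members are higher and 36% lower shows no more than the background. The counts of every list below are to be read against these shares, also where they are not repeated. The background was 29.5% higher and 34.1% lower in the titled NT difference, and 37.4% and 38.7% in the titled C5i difference. In the trend-removed fit 10466 genes were called (69.2%), 34.3% higher and 34.8% lower. At least 2-fold differences were called there for 20% of genes, 1745 higher (11.5%) and 1279 lower (8.45%). The 2 LNCaP scramble libraries were close to each other (chi-square per gene 1.83, where counting error gives about 1), and the 2 C4-2 libraries less so (21.3). Whether replicates came from separate cultures is not in the labels, and the p values reflect the spread between libraries, which may be technical.

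Both lines carried the markers of luminal prostate cells. KLK3, which encodes prostate-specific antigen, stood at 3400 and 3810 CPM (counts scaled to a common library size) in C4-2 and at 3380 and 3490 in LNCaP. The KLK3 ranges overlapped, with a difference of 0.07 ± 0.079 (log2 ± SE) and an adjusted p of 0.45. In the trend-removed fit KLK3 was called higher in C4-2 (0.56). The serine protease TMPRSS2 (350 and 345 against 377 and 381 CPM, -0.12) did not pass the test either. TMPRSS2 changed sign in the trend-removed fit and passed there (0.19). With 1 C4-2 library left out and the spread taken from the LNCaP pair, TMPRSS2 passed as lower without either one, and KLK3 as higher without replicate 1 (0.16).

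FOLH1, which encodes prostate-specific membrane antigen, was lower in C4-2 (741 and 645 against 934 and 924 CPM, -0.42 ± 0.087, adjusted p = 0.0033). The luminal keratins were also lower. KRT8 was at 216 and 287 CPM in C4-2 and 722 and 714 in LNCaP, a difference of -1.51 ± 0.13 (adjusted p = 6.4e-05). KRT18 differed by -0.93 (372 and 426 against 763 and 753 CPM). FOLH1 was lower in C4-2 in the inhibitor experiment as well (titled NT -1.46, titled C5i -1.60), and KRT8 was not (0.04 and 1.29). Summed over 9 luminal markers, the level was 7210 and 7670 CPM in C4-2, 8520 and 8610 in LNCaP, and 641 and 817 in PC3.

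Markers of PC3-type cells and of other cells were near 0. The 6 PC3-type markers, VIM, CD44, ANXA1, AXL, CAV1 and TGFBI, summed to 15.6 and 17.2 CPM in C4-2 and 7.54 and 8.03 in LNCaP, against 3430 and 3290 in PC3, and 1 of the 6 had 0 counts in each line. Most of that sum was VIM, the intermediate filament vimentin, at 15.3 and 16.8 CPM in C4-2 and 5.94 and 6.57 in LNCaP. The basal markers KRT5, KRT14 and TP63 summed to under 1 CPM in every library. The 10 fibroblast markers summed to 3.09 and 4.88 CPM in C4-2 and 15.6 and 13.9 in LNCaP, mostly COL1A1, a collagen chain (2.4 and 3.24 against 13.6 and 12.3 CPM). The 12 leukocyte markers summed to between 1.27 and 2.36 CPM. The 9 endothelial markers measured summed to 1.75 and 2.69 CPM in C4-2 and to 13.2 and 14.3 in LNCaP, mostly VWF, the von Willebrand factor (1.37 and 1.94 against 12.8 and 13.9 CPM).

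The largest differences were genes read in 1 line and almost absent from the other. TMEFF2, a transmembrane protein with follistatin-like domains found mainly in prostate and brain, was at 308 and 310 CPM in LNCaP and 0.0 and 0.0842 in C4-2. That is 18166 counts in LNCaP against 2 in C4-2, a ratio of 7720 with a 95% counting interval of 2140 to 63800. ETV1, an ETS transcription factor that is overexpressed from a rearranged locus in LNCaP, had 133 and 134 CPM in LNCaP and 0.0381 and 0.0 in C4-2, from 1 count. SLITRK3, a neuronal transmembrane protein, had 74.7 and 74.1 CPM in LNCaP and 1 count in C4-2. The metallothionein MT1G was at 23.2 and 24 CPM in LNCaP with no count in C4-2, at least 393-fold lower against a floor of 3 counts over the C4-2 group. DNAJC15, a mitochondrial DnaJ protein, was at 10.8 and 9.81 CPM in LNCaP with no count in C4-2, at least 172-fold lower. The shCSN5 libraries of the same 2 projects, not used in any of these tests, had the same order. In them TMEFF2 was at 441 and 384 CPM in LNCaP and 0.0 and 0.0 in C4-2, and ETV1 at 72.3 and 53.8 against 0.0 and 0.0.

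Another 5 genes completed the 10 largest decreases. These were UGT2B17, described below, TFF1, a secreted trefoil peptide, MMP7, the protease matrilysin, BCHE, butyrylcholinesterase, and MAGEA10, a cancer-testis antigen. TFF1 was at 0.152 and 0.126 CPM in C4-2 and 56.2 and 57.3 in LNCaP (-8.62 ± 0.20, adjusted p = 7e-07). BCHE was at 0.229 and 0.337 CPM in C4-2 and 105 and 102 in LNCaP (-8.51 ± 0.18). MMP7 had 3 counts in C4-2 against 1439 in LNCaP, where it was at 25.2 and 23.7 CPM, a ratio of 408 (95% counting interval 139 to 1980). MAGEA10 stood at 0.381 and 0.379 CPM in C4-2 and 78.5 and 81.1 in LNCaP.

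In the inhibitor experiment several of these genes were again far lower in C4-2. TMEFF2 was at 111 and 117 CPM in LNCaP DMSO, 1.87 and 1.85 in C4-2 titled NT and 0.282 and 0.233 in C4-2 titled C5i. BCHE (-3.86 and -6.64), SLITRK3 (-3.07 and -5.75) and MMP7 (-2.0 and -3.18) were called lower in both differences. MT1G was at 58.2 and 69.8 CPM in LNCaP DMSO and at most 0.261 in the C4-2 libraries. TFF1 and MAGEA10 were called lower in the titled C5i difference (-1.62 and -1.99). In titled NT, TFF1 was not called (-0.26), and MAGEA10 was called higher in C4-2 (0.29). TFF1 was under 1 CPM in all 6 libraries, including LNCaP. MAGEA10 was at 45.6 and 41.1 CPM in LNCaP DMSO, at 53.5 and 56.3 in titled NT and at 10.8 and 11.4 in titled C5i. ETV1 and DNAJC15 could not be joined and were not analysed there.

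Genes read only in C4-2 had equally plain values. LPL, the lipase that releases fatty acids from lipoproteins, was at 83.4 and 77.8 CPM in C4-2 with no count in LNCaP, at least 1580-fold higher. BMP7, a bone morphogenetic protein, was at 19.7 and 24.7 CPM in C4-2 and had 1 count in LNCaP, a ratio of 1300 (95% counting interval 233 to 51300). SLC25A43, a mitochondrial carrier, was at 20.3 and 18.4 CPM in C4-2 (at least 380-fold higher), and ITPRIPL2 at 12.9 and 12.4 (at least 248-fold higher). COCH, the secreted protein cochlin, was at 11.7 and 10.4 CPM in C4-2 and at 0 in LNCaP, at least 217-fold higher. In the shCSN5 libraries, the 4 genes with no count in LNCaP scramble (LPL, SLC25A43, ITPRIPL2 and COCH) were at most 0.186 CPM in LNCaP and at least 13.6 CPM in C4-2.

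TRIB2, a pseudokinase of the Tribbles family, had the highest level among the 10 largest increases. It was at 336 and 316 CPM in C4-2 and 0.196 and 0.0355 in LNCaP (11.37 ± 0.24, adjusted p = 7e-07). GNAL, a G protein alpha subunit, was at 25.9 and 25.7 CPM against 0.130 and 0.0355. ACADL, a dehydrogenase of fatty acid oxidation, was at 30.0 and 25.7 against 0.130 and 0.142. The receptor tyrosine kinase EPHA5 was at 28.4 and 26.4 against 0.228 and 0.107, and SERTAD4 at 19.5 and 18.2 against 0.163 and 0.0355. Every C4-2 library lay above every LNCaP library for all 10 genes, as the rule that named them requires. In the inhibitor experiment BMP7 was at 17.1 and 14.7 CPM (titled NT) and 24.6 and 26 (titled C5i) against 0.116 and 0.138 in LNCaP DMSO. COCH (6.12 and 4.55), ITPRIPL2 (3.63 and 3.41) and GNAL (2.75 and 2.45) were called higher in both differences. TRIB2 was called higher in both but at much lower levels, 9.65 and 11.6 CPM in titled NT and 0.810 and 0.815 in titled C5i. SERTAD4 was called in the titled NT difference (4.04), and LPL, SLC25A43, ACADL and EPHA5 were not analysed there.

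**Figure D2:**
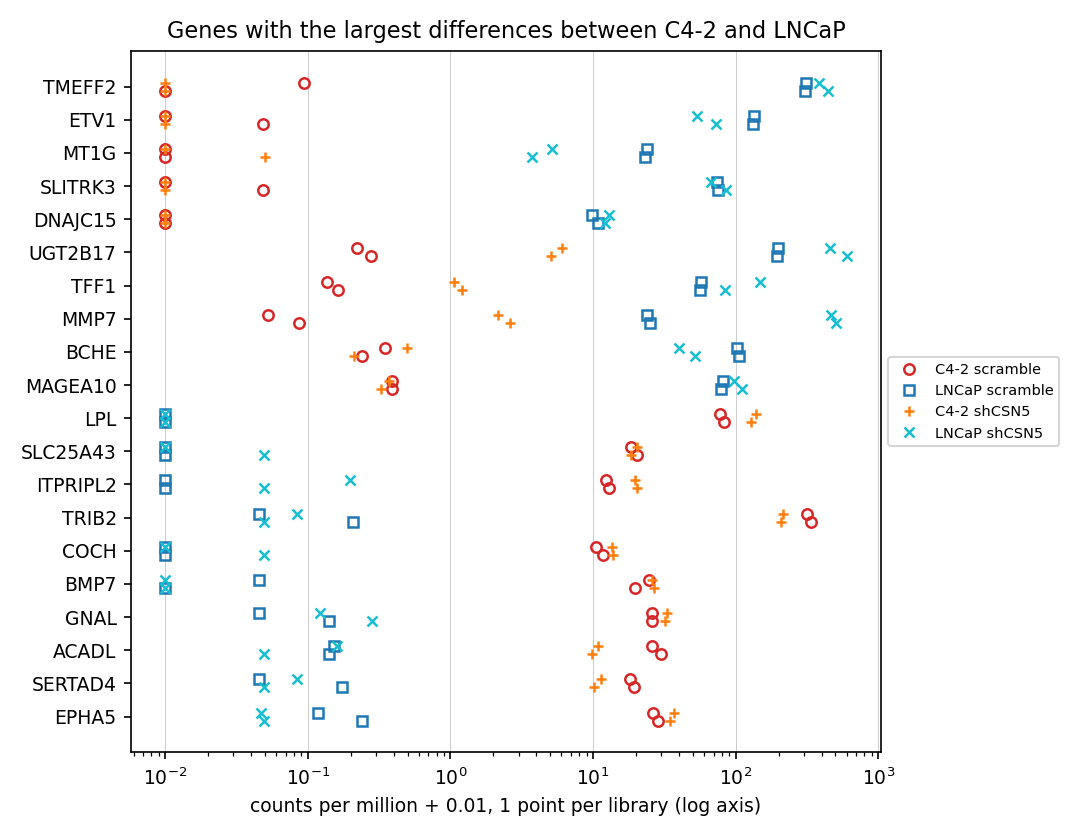
CPM plus 0.01 on a log axis, 1 point per library, for the 10 largest decreases (top) and 10 largest increases (bottom) in C4-2. Open symbols are the scramble libraries that the test used and crosses are the shCSN5 libraries. For all 20 genes the scramble libraries of the lines do not overlap, and LPL is at 83.4 and 77.8 in C4-2 and at 0 in LNCaP.

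Among protein-coding genes with a mean of at least 5 CPM in 1 line, 13 had at most 3 counts in C4-2 and 11 had at most 3 counts in LNCaP. Besides those above, the first group held HTATIP2, PRXL2A, CPQ, MAGEA4, UGT2B10, TWIST1 and PIGR, and the second CYP1B1, HOXA13, WT1, TXLNB, NPR3 and SLCO3A1. Of the 13, 8 could be tested in the inhibitor experiment, and 7 were called lower in C4-2 in both differences, where 34.1% (titled NT) and 38.7% (titled C5i) of all genes were. The other, PIGR, was higher in both (8.09 and 5.67). Of the 11, 4 could be tested (BMP7, ITPRIPL2, COCH and HOXA13), and they were called higher in C4-2. These few genes passed the low-count filter there mainly through the line in which they are high, and both differences share the LNCaP DMSO libraries, so the counts are a description only.

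Because these genes hold the plainest differences between the lines, the sequence before the start is shown for 2 genes at or near 0 in C4-2 and 2 at 0 in LNCaP. The windows are the 250 bases before the RefSeq transcription start (GRCh38.p14), written 5′ to 3′ along the gene, with each CG dinucleotide in capitals. TMEFF2 lies on the minus strand at chr2:192194934-192195183, DNAJC15 on the plus strand at chr13:43023336-43023585, COCH on the plus strand at chr14:30874309-30874558 and ITPRIPL2 on the plus strand at chr16:19113714-19113963.
TMEFF2: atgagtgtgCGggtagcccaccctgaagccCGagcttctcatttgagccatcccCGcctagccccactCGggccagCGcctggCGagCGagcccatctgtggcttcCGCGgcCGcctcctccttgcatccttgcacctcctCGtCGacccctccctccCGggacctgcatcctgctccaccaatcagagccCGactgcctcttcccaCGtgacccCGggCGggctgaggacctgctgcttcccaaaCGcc
DNAJC15: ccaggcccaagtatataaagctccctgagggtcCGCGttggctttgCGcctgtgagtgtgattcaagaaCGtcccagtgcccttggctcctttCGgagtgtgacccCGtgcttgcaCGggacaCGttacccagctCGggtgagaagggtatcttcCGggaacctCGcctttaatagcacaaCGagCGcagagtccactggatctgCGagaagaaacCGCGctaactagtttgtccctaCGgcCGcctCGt
COCH: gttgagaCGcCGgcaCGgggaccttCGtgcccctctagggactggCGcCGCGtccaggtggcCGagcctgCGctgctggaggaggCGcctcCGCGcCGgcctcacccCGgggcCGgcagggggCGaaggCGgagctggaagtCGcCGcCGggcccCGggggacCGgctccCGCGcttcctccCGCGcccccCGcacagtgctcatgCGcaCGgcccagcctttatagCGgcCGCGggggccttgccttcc
ITPRIPL2: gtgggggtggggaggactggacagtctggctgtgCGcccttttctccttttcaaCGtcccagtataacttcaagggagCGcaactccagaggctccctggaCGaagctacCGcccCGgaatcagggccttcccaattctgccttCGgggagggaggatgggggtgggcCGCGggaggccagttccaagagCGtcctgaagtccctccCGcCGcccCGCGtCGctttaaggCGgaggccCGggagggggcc
The windows held 18, 19, 32 and 17 CG dinucleotides, a ratio of observed to expected CG of 0.68, 0.92, 0.86 and 0.63. The same ratio had a median of 0.63 over the 10 windows found for genes nearly absent from C4-2, 0.68 over the 8 found for genes nearly absent from LNCaP, and 0.83 over 10193 protein-coding genes tested. It was above 0.6 in 6 of 10, in 6 of 8 and in 80.8% of windows. DNA methylation was not measured, and these ratios describe the sequence only.

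Androgen signalling in prostate cells works with lineage factors such as FOXA1, HOXB13 and GATA2 and drives genes such as KLK3, KLK2, FKBP5 and TMPRSS2. Of 18 genes in the list of lineage factors and their coregulators, 14 were tested, 3 higher and 5 lower in C4-2 (4 and 8 with the trend removed). HOXB13 was lower (243 and 297 against 591 and 579 CPM, -1.12 ± 0.11, adjusted p = 9.3e-05), and so was FOXA1 (255 and 248 against 347 and 340 CPM, -0.45). The corepressor gene NCOR1 was lower (-0.24), and the coactivator gene NCOA1 was higher (0.62). GRHL2, a grainyhead-like epithelial factor, was higher (308 and 303 against 155 and 152 CPM, 0.99 ± 0.075), as was NR3C2, the mineralocorticoid receptor (1.26). GATA2 (-0.24), SPDEF (-0.44), NCOA2 (0.15) and NCOA3 (0.19) did not pass, and ETV1 is described above. Without C4-2 replicate 2 all 14 members were called (6 higher, 8 lower), SPDEF at -0.92, GATA2 at -0.46 and NCOA2 at 0.26. NCOR1 was not called without either LNCaP library (adjusted p = 0.38 and 0.22). In the inhibitor experiment FOXA1 was lower in C4-2 (-0.59 titled NT, -1.97 titled C5i), and GRHL2 was higher (0.80 and 0.29).

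Genes that androgen induces were more often higher in C4-2. Of 30 tested, 18 were higher and 4 lower, where 37.2% and 36.1% of all genes were, and 9 were at least 2-fold higher and 1 at least 2-fold lower. Their median log2 difference was 0.53, against 0.0 over all genes tested, and 0.60 with the trend removed (22 higher, 5 lower). EAF2, an elongation factor partner, was at 32.9 and 29.7 CPM in C4-2 and 3.43 and 3.48 in LNCaP (3.18 ± 0.13, adjusted p = 5.8e-06). TRPM8, a cold-sensing ion channel, was at 204 and 188 against 29.6 and 28.4 CPM (2.76 ± 0.096). FKBP5, a cochaperone of steroid receptors, was at 741 and 664 against 180 and 184 CPM (1.95 ± 0.085). KLK2, which encodes a kallikrein related to prostate-specific antigen, was at 509 and 576 against 416 and 413 CPM (0.39). SLC45A3, a sugar transporter known as prostein, went the other way, at 122 and 154 CPM in C4-2 and 547 and 533 in LNCaP (-1.97 ± 0.12). CAMKK2, a kinase upstream of AMPK, was also called lower (-0.44), but not in the trend-removed fit (-0.08) or without either LNCaP library (adjusted p = 0.057 and 0.059). The titled NT difference had 17 of 29 members higher and 8 lower, where 29.5% and 34.1% of all genes were (median 0.80, FKBP5 2.42, EAF2 2.14, TRPM8 0.85). The titled C5i difference had 9 of 29 higher and 17 lower, where 37.4% and 38.7% of all genes were (median -0.61), with KLK3 at -3.0 and FKBP5 at 0.25.

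Among other luminal markers, the differences went both ways. DPP4, a membrane peptidase, was at 316 and 290 CPM in C4-2 and 13.5 and 13.6 in LNCaP (4.48 ± 0.10, adjusted p = 7e-07), and it was higher in C4-2 in the inhibitor experiment too (2.82 and 0.90). ACP3, prostatic acid phosphatase, was at 12.3 and 10.8 CPM in C4-2 and 73.1 and 72.4 in LNCaP (-2.65 ± 0.12), with -3.69 and -7.21 in the inhibitor experiment. STEAP1, a metalloreductase, was called higher (0.51), but its difference was -0.01 with the trend removed. Of 10 luminal markers tested, 3 were higher and 5 lower, also with the trend removed.

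Several enzymes that inactivate androgen were far lower in C4-2. UGT2B enzymes attach glucuronic acid to steroids, and UGT2B15 and UGT2B17 are the main ones that clear dihydrotestosterone and its metabolites in prostate cells. Of 26 genes for steroid synthesis and androgen inactivation, 20 were tested. In C4-2, 13 were lower and 5 higher, where 36.1% and 37.2% of all genes tested were. At least 2-fold lower were 10 of the 20, against 14.1% of all genes (list median -1.11, or -1.31 with the trend removed). UGT2B17 was at 0.267 and 0.211 CPM in C4-2 and 196 and 197 in LNCaP (-9.65 ± 0.16, adjusted p = 3.8e-07). UGT2B15 was at 1.60 and 1.31 against 120 and 122 CPM (-6.37 ± 0.14), and UGT2B11 at 0.648 and 0.758 against 63.2 and 69.7 (-6.56 ± 0.17). UGT2B28 was at 1.33 and 0.926 against 7.34 and 8.46 CPM. UGT2B10 had 3 counts in C4-2 against 364 in LNCaP, a ratio of 103 (95% counting interval 35.0 to 503), and UGT2B7 was under 0.5 CPM in all libraries. For every one of these genes both C4-2 libraries lay below both LNCaP libraries. Groups did not overlap, in either direction, for 87.8% of all genes tested. UGT2B17 and UGT2B10 passed the low-count filter mainly through LNCaP, where they are high, so their direction is a description only. The UGT2B genes are close copies of each other on chromosome 4, and how the authors' counting split reads among them is not given in the sources used here.

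In the shCSN5 libraries UGT2B17 was at 5.09 and 6 CPM in C4-2 and 602 and 461 in LNCaP. The inhibitor experiment had UGT2B17 at 198 and 180 CPM in LNCaP DMSO, 2.12 and 2.35 in titled NT and 1.97 and 1.09 in titled C5i. UGT2B15 (-3.94 and -5.44) and UGT2B11 (-2.11 and -2.38) were also called lower in both differences, and UGT2B28 was not (0.44 and 0.03). The whole steroid list had 6 higher and 6 lower of 18 in titled NT (median -0.04). In titled C5i it had 4 higher and 9 lower of 18 (median -0.65). The window before the UGT2B15 start is shown because this gene family carries the steroid result, with matches to the FOXA core TGTTTAC, on either strand, in capitals. It is on the minus strand at chr4:68670653-68670902 (GRCh38.p14, RefSeq).
UGT2B15: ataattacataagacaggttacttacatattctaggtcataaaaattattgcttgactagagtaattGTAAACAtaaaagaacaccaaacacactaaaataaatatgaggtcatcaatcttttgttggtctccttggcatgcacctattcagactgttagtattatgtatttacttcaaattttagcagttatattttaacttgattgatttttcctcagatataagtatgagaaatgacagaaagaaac
It held no CG dinucleotide and 1 match to TGTTTAC (as its reverse complement). Of 27305 promoter windows of this length, 2.98% held these letters on either strand. The match is letters in a window, and binding was not measured.

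The rest of the steroid list moved less. SULT2B1, a sulfotransferase of cholesterol and steroids, was lower (1.56 and 1.85 against 9.66 and 9.17 CPM, -2.46 ± 0.17). AKR1C1 (-1.47), AKR1C2 (-1.90) and AKR1C3 (-1.30), close copies that reduce or oxidise steroids, were lower at levels under 4 CPM, and AKR1C3 was not called with DESeq2 (adjusted p = 0.17) or without either LNCaP library or C4-2 replicate 2 (-0.90). CYP11A1, the first enzyme of steroid synthesis, was higher (9.11 and 11.5 against 2.48 and 2.27 CPM, 2.11 ± 0.18), as was STS, steroid sulfatase (43.5 and 39.5 against 12.5 and 12.2 CPM, 1.75 ± 0.12). In the inhibitor experiment CYP11A1 was higher in both differences (1.48 and 0.66), and STS higher in titled NT (0.63) and lower in titled C5i (-1.25). HSD17B11, a dehydrogenase of steroids, was higher (1.24) and HSD17B10 (-0.92), SRD5A3 (-0.43) and STARD3 (-0.88) were lower. HSD3B1 (1.03) and HSD17B6 (0.63) were called higher at levels under 4 CPM, and neither was called with DESeq2 (adjusted p = 0.24 for HSD3B1 and 0.13 for HSD17B6). SRD5A1, a steroid 5-alpha reductase, was at 29.2 and 24.7 against 28.0 and 27.7 CPM and did not pass (-0.05), nor did HSD17B4 (0.11), though SRD5A1 passed without C4-2 replicate 1 (-0.17) and HSD17B4 without replicate 2 (0.19). SRD5A3 lost its call without either LNCaP library (adjusted p = 0.13 and 0.06).

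**Figure D3:**
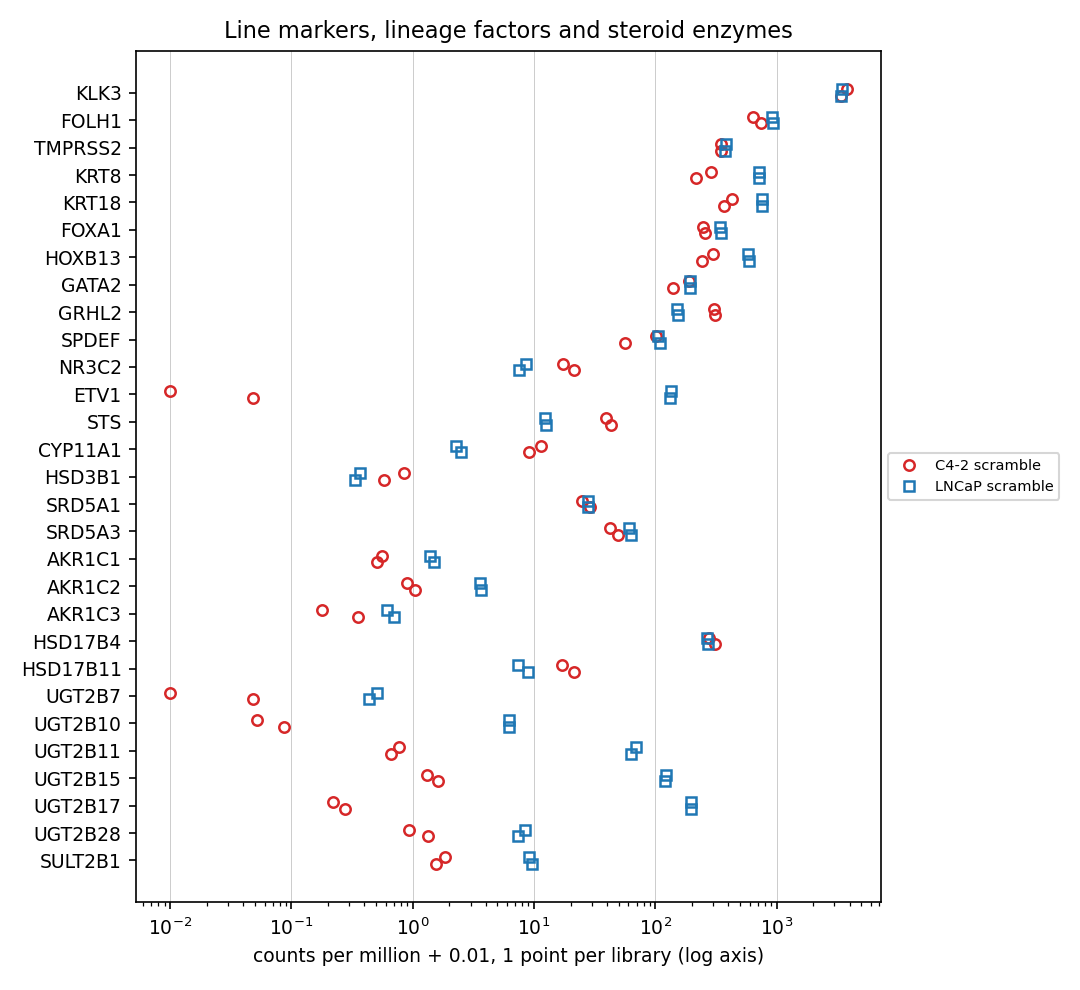
CPM plus 0.01 on a log axis for line markers, lineage factors and steroid enzymes, 1 point per scramble library, circles for C4-2 and squares for LNCaP. The KLK3 libraries of the lines lie together (3400 and 3810 in C4-2, 3380 and 3490 in LNCaP), whereas UGT2B17 is at 0.267 and 0.211 in C4-2 and at 196 and 197 in LNCaP.

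Cell division genes were higher in C4-2. G2/M genes act from the end of DNA replication to the division of the cell. Of 25 tested, 21 were higher and none lower, where 37.2% and 36.1% of all genes were. At least 2-fold higher were 14 of the 25, against 19.9% of all genes, and the list median was 1.24. With the trend removed 24 were higher, none lower, and the median was 0.89. CDK1, the kinase that starts mitosis, was at 649 and 543 CPM in C4-2 and 99.7 and 96.8 in LNCaP (2.60 ± 0.11, adjusted p = 5e-06). HMMR, a spindle protein, was at 197 and 171 against 32.9 and 33.5 CPM (2.47 ± 0.11). In bulk RNA, more cells in a phase and more RNA per cell cannot be told apart. The titled NT difference had 17 higher and 1 lower, where 29.5% and 34.1% of all genes were (median 0.56, CDK1 1.2, HMMR -0.12). The titled C5i difference had 25 of 25 lower, where 38.7% of all genes were (median -4.87, CDK1 -1.44).

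G1/S and DNA replication genes went more evenly, with 17 of 28 higher and 9 lower, where 37.2% and 36.1% of all genes were. Their median was 0.33, or 0.24 with the trend removed. RFC3, of the clamp loader (209 and 180 against 39.2 and 38.7 CPM, 2.32), and CCNE2, cyclin E2 (2.14), were higher. CCNE1, cyclin E1 (-1.01), and GINS2, of the replicative helicase (-0.69), were lower. All 28 were higher in the titled NT difference (median 1.63), and 27 were lower in the titled C5i difference (median -2.50). Of all genes 29.5% were higher in titled NT and 38.7% lower in titled C5i. CDK6, a kinase that pairs with D cyclins, was at 22.5 and 17.9 CPM in C4-2 and 0.750 and 0.640 in LNCaP (4.85 ± 0.21, adjusted p = 6.1e-06), and it was higher in the inhibitor experiment as well (1.45 and 1.33). RB1, the retinoblastoma gene, was higher (1.73, or 0.73 with the trend removed) and CDK4 lower (-0.66). CDKN1A, the CDK inhibitor p21, was lower (184 and 213 against 313 and 317 CPM, -0.66) and did not pass with the trend removed (-0.09).

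Replication-dependent histone genes were higher in 12 of 16 cases and lower in none, where 37.2% and 36.1% of all genes were. Their median was 1.13, the same as with the trend removed. H2AC11 was at 28.1 and 25.9 against 3.95 and 2.77 CPM (3.0 ± 0.18), and H2BC4 at 19.7 and 20 against 4.73 and 4.94 CPM (2.04). These genes are near-identical copies, and their messages mostly lack a poly(A) tail. Beside them, 2 of 5 small structured RNAs tested were higher and none lower (RN7SL1 10.4 and 18.4 against 7.14 and 9.10 CPM). Of 13 genes of the mitochondrial genome, 11 were higher and none lower, where 37.2% and 36.1% of all genes were (median 0.41). With the trend removed 5 were higher and 2 lower (median 0.04), and without LNCaP replicate 1, 7 were higher. The small RNA count was 1 with DESeq2 and 4 without C4-2 replicate 1. The part of library type in the histone values was not tested. H2AC11 went the other way in the inhibitor experiment (-1.25 and -2.33).

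Genes induced by p53 were lower in C4-2 in 15 of 25 cases and higher in 8, where 36.1% and 37.2% of all genes were. The list median was -0.49, and with the trend removed 11 were lower and 7 higher (median -0.09). SESN2 (-1.68) and BTG2 (-1.5) were lower, and RRM2B (2.01) and CCNG1 (1.17) higher. With the trend removed these were -1.07, -1.32, 0.96 and 0.26. The titled NT difference had 15 lower and 4 higher (median -0.73). The titled C5i difference had 23 higher and 1 lower (median 1.47). Genes of MYC and ribosome biogenesis (5 higher, 8 lower of 19) were led by NOP58 (1.47) and NPM1 (0.79), and by PES1 (-1.17) and POLR1A (-0.81); without LNCaP replicate 1, 3 were higher and 5 lower. Cytosolic ribosomal proteins were lower in 18 of 28 cases and higher in 8, where 36.1% and 37.2% of all genes were. Their median was -0.45, or -0.07 with the trend removed, with 13 lower and 7 higher. RPL13 (-1.29) and RPLP0 (-0.78) were lower, and RPL7 (1.72) and RPS6 (0.85), which have many pseudogene copies, higher.

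ATF4 is a factor that raises amino acid synthesis and transport when translation is checked. Of 19 members of its stress response tested, 11 were lower and 4 higher, where 36.1% and 37.2% of all genes were. The list median was -0.51, or -0.38 with the trend removed, with 12 lower and 5 higher. CHAC1, which degrades glutathione, was at 1.83 and 2.02 CPM in C4-2 and 16.4 and 14.5 in LNCaP (-3.0 ± 0.16). DDIT4, an inhibitor of mTOR complex signalling, was at 35.1 and 39.1 against 200 and 192 CPM (-2.40 ± 0.097). DDIT3, the factor CHOP (1.07), and MTHFD2, a mitochondrial folate enzyme (0.81), were higher. With the trend removed DDIT3 was 1.17 and MTHFD2 0.17. The titled NT difference had 18 of 19 lower (median -1.64, CHAC1 -4.08, DDIT4 -2.32, DDIT3 -1.93), and the titled C5i difference 12 higher and 4 lower (median 0.66).

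Chaperones of the endoplasmic reticulum went both ways, 7 higher and 7 lower of 18. DNAJB9 (2.67) and DNAJC3 (1.5) were higher, HYOU1 (-0.97) and CALR (-0.59) lower. Without either LNCaP library 5 were higher and 3 lower. Heat shock genes were higher in 7 of 12 cases and lower in 3 (median 0.33, or 0.22 with the trend removed). HSPH1, a nucleotide exchange factor, was at 745 and 643 against 121 and 123 CPM (2.51 ± 0.096), and HSP90AA1, the inducible HSP90, at 4210 and 3640 against 1210 and 1200 CPM (1.70 ± 0.089). HSP90AB1 (-0.41) and DNAJB1 (-0.66) were lower. HSPH1 was 1.37 and HSP90AA1 0.67 in the titled NT difference, and 0.05 and -0.18 in the titled C5i difference. Genes of NRF2 and glutathione had 7 higher and 10 lower of 17, with GCLM (1.45) and TXNRD1 (0.93) among the first and GSTA4 (-1.71) and PGD (-1.26) among the second. Immediate early genes were lower in 11 of 17 cases and higher in 2, where 36.1% and 37.2% of all genes were (median -0.91). That median was -0.27 with the trend removed, with 5 lower and 3 higher. SPRY4 (0.991 and 0.463 against 11.2 and 11.4 CPM) and JUN (-1.26) were lower, and FOSL2 (0.44) and SPRY2 (0.91) higher. FOSL2 was not called without either LNCaP library, nor SPRY2 with DESeq2 (adjusted p = 0.058).

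Growth and bone signalling genes held some of the plainest increases. Signals of the BMP and TGF-beta family bind receptor kinases that activate SMAD factors, and ID genes are among their targets. Of 24 members tested, 13 were higher and 4 lower, where 37.2% and 36.1% of all genes were. At least 2-fold higher were 9 of the 24, against 19.9% of all genes (list median 0.63, or 0.50 with the trend removed). ID4 was at 11.3 and 11.4 CPM in C4-2 and 0.391 and 0.355 in LNCaP (4.91 ± 0.20, adjusted p = 5e-06), and the ligand TGFB2 at 6.36 and 5.26 against 0.457 and 0.320 CPM (3.88 ± 0.25). Both were higher in both differences of the inhibitor experiment (ID4 1.73 and 5.14, TGFB2 2.97 and 3.03). The whole list had 10 higher and 10 lower of 23 in titled NT (median 0.13). In titled C5i it had 15 higher and 5 lower of 23 (median 0.91). GDF15, a stress-induced ligand, was at 36.6 and 57.1 against 167 and 166 CPM (-1.83 ± 0.19), and BAMBI, a decoy receptor, was lower (-0.87). Among bone-matrix and bone-signalling genes, 5 of 10 tested were higher and 2 lower. BMP7 led them, LOX, which cross-links collagen, was higher (1.71), and COL1A1 (2.40 and 3.24 against 13.6 and 12.3 CPM, -2.20) and CXCR4 (-0.78, all libraries under 2 CPM, not called with DESeq2) were lower.

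Growth factor genes and their receptors had 8 higher and 7 lower of 22 tested (8 and 6 with the trend removed). That is near the background of 37.2% and 36.1% of all genes. IGF1, insulin-like growth factor 1, was at 32.3 and 31.7 CPM in C4-2 and 2.12 and 1.95 in LNCaP (3.97 ± 0.14), and its binding protein IGFBP3 at 123 and 121 against 28.3 and 27.5 CPM (2.13 ± 0.092). IGFBP3 was higher in the inhibitor experiment by 2.24 in titled NT, and IGF1 by 2.30, while the titled C5i values were 0.24 and -0.88. ERBB2, the receptor HER2, was at 61.3 and 85.7 against 278 and 270 CPM (-1.90 ± 0.15), and its partner ERBB3 was lower (-0.84). ERBB2 differed by -0.56 and 0.53 in the inhibitor experiment. Wnt genes were split, 11 higher and 11 lower of 24 (10 and 8 with the trend removed). The receptor genes FZD4 (53.2 and 46.7 against 6.98 and 7.43 CPM, 2.79) and LGR4 (1.49) were higher, and the ligand WNT7B (-1.60) and the receptor-degrading ligase RNF43 (-1.44) lower.

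Adhesion and matrix genes went both ways. Epithelial adhesion genes were lower in 9 of 16 cases and higher in 3, where 36.1% and 37.2% of all genes were. Their median was -0.56, or -0.27 with the trend removed, with 11 lower and 2 higher. CLDN7, a tight junction claudin, was at 145 and 176 against 378 and 375 CPM (-1.23 ± 0.11), CTNND1, p120 catenin, was lower (-0.79), and ESRP1, an epithelial splicing factor, higher (1.25). CTNNB1, beta-catenin, was called higher (0.38) and turned to -0.13 with the trend removed; it was not called without either LNCaP library (adjusted p = 0.068 and 0.059). Of 18 matrix proteases and inhibitors tested, 11 were lower, 9 of them at least 2-fold, and 6 higher (median -1.11). With the trend removed 9 were lower and 4 higher (median -0.48). Of all genes 36.1% were lower, 14.1% at least 2-fold lower, and 37.2% higher. MMP7, with 3 counts in C4-2, passed the low-count filter mainly through LNCaP, so its direction is a description only. MMP16 was at 2.36 and 1.73 CPM in C4-2 and 51.0 and 54.5 in LNCaP (-4.68 ± 0.17), and it was also lower in the inhibitor experiment (-3.43 and -6.56). ADAM9 (1.09, or 0.25 with the trend removed) and ADAMTS1 (0.87, or 0.91) were higher. In the inhibitor experiment ADAM9 was -1.3 and -0.04, and ADAMTS1 -0.18 and 0.54. Integrins were higher in 7 of 16 cases (8 with the trend removed) and lower in 4 in either fit. ITGAV (1.14) and ITGA2 (1.12) were among the higher, and ITGA5 (-1.65) and ITGA3 (-1.12) among the lower. With the trend removed these were 0.23, 0.40, -1.07 and -0.48.

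Cadherins had 2 of 10 higher and 6 lower (4 and 4 with the trend removed), with DCHS1 (1.18) higher, PCDH19 at 0.876 and 0.632 against 0.0326 and 0.0355 CPM, and CDH26 (1.83 and 1.60 against 14.9 and 14.9 CPM, -3.11) and CDH24 (-1.44) lower. CDH26 was lower in the inhibitor experiment too (-5.24 and -7.56). Of 17 genes high in mesenchymal, PC3-type cells, 8 were tested, 4 higher and 2 lower. FN1, fibronectin, was at 2670 and 2640 against 1610 and 1640 CPM (0.71), and SNAI2, the factor Slug, at 10.5 and 10.7 against 2.28 and 2.24 CPM (2.23 ± 0.15). TWIST1, a mesenchymal factor, had 3 counts in C4-2 against 359 in LNCaP (6.07 and 6.15 CPM), a ratio of 102 (95% counting interval 34.5 to 496), and ANXA1 was at most 1.30 CPM. SNAI2 (2.65 and 3.58) and FN1 (2.13 and 0.65) were higher in the inhibitor experiment too. Basal genes were few: LAMA3 (0.93) was higher, and LAMB3 lower (-1.81), of 4 tested. Neuroendocrine markers had 2 of 6 higher and 3 lower. PEG10 was at 26.4 and 24.8 CPM in C4-2 and 0.457 and 0.355 in LNCaP (5.96 ± 0.19), ONECUT2 was higher (1.43), and ENO2 (3.70 and 3.16 against 39.0 and 42.6 CPM, -3.57) and TUBB3 (-1.62) lower. ENO2 was lower in the inhibitor experiment (-2.43 and -4.08), whereas PEG10 was not higher there (-0.67 and -2.54).

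Metabolic genes shifted in both directions. Hypoxia and glycolysis genes were lower in 15 of 23 cases and higher in 4, where 36.1% and 37.2% of all genes were. Their median was -0.62, or -0.36 with the trend removed. SLC16A3, a lactate exporter, was at 32.5 and 55.7 CPM in C4-2 and 2.45 and 2.63 in LNCaP (4.12 ± 0.29), and NDRG1 was higher (1.31). ALDOC, an aldolase, was at 22.4 and 24.5 against 162 and 167 CPM (-2.81 ± 0.098), and EGLN3, an oxygen-sensing hydroxylase, was lower (-1.88). SLC16A3 was 4.04 and 1.58 in the inhibitor experiment. In titled NT the list had 17 of 22 higher and 2 lower, where 29.5% and 34.1% of all genes were (median 0.79). Cholesterol synthesis genes were lower in 13 of 22 cases and higher in 7 (11 and 4 with the trend removed). SREBF2, the sterol-sensing factor (-1.22), and TM7SF2 (-1.72) were lower, and IDI1 (1.31) and SC5D (1.10) higher. With the trend removed these were -0.67, -1.07, 0.64 and 0.22. Genes of fatty acid synthesis and oxidation had 9 higher and 12 lower of 26. After ACADL, ELOVL7, an elongase (310 and 263 against 65.7 and 62.1 CPM, 2.17), was higher, and SCD, the desaturase (374 and 332 against 681 and 692 CPM, -0.96), and CPT2 (-1.13) lower. Nuclear oxidative phosphorylation genes (7 higher, 11 lower of 24, median -0.03; 7 and 15 with the trend removed) were led by SDHD (1.29) and COX6C (1.26), and by COX4I1 (-1.02).

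Interferon-stimulated genes were lower in 11 of 19 cases and higher in 3, where 36.1% and 37.2% of all genes were. At least 2-fold lower were 8 of the 19, against 14.1% of all genes (list median -0.88, or -0.75 with the trend removed). OASL (1.45 and 1.26 against 8.06 and 8.38 CPM, -2.59) and STAT2 (-1.24) were lower, and BST2 (2.74) and the RNA sensor IFIH1 (1.59) higher. Genes of MHC class I and antigen presentation were lower in 10 of 17 cases and higher in 3, against the same 36.1% and 37.2%. Their median was -0.49, or -0.16 with the trend removed. B2M, the light chain of class I molecules, at 295 and 259 against 178 and 172 CPM (0.66), turned to -0.16 with the trend removed. HLA-DPA1 was under 2 CPM, and PSMB8, of the immunoproteasome, was higher (1.42). In the inhibitor experiment the MHC list went the other way, with 10 of 16 higher and none lower in titled NT (median 0.55) and 15 of 16 higher and none lower in titled C5i (median 2.21). NF-kB targets were lower in 8 of 11 cases and higher in 2, against 36.1% and 37.2% of all genes. Their median was -0.83, or -0.95 with the trend removed. ICAM1, an adhesion molecule for leukocytes, was an exception at 7.51 and 7.71 against 0.196 and 0.391 CPM (4.69 ± 0.26), as was TNFAIP2 (0.93). The inhibitor experiment had 8 of 10 NF-kB targets higher in titled NT (median 1.73) and 9 of 10 in titled C5i (median 2.62), ICAM1 among them (8.52 and 8.85).

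Genes of cell identity and of germ cells differed by large amounts. HOX genes, which set position along the body axis, were higher in 9 of 19 cases, 8 of them at least 2-fold, and lower in 3 (median 0.98, or 1.22 with the trend removed). HOXA13 was at 8.50 and 8.08 CPM in C4-2 and had 3 counts in LNCaP, a ratio of 163 (95% counting interval 55.3 to 792), and HOXA10 was at 60.8 and 62.0 against 9.33 and 10.2 CPM (2.65 ± 0.11). HOXC8 was at 6.02 and 5.05 against 0.261 and 0.213 CPM, and HOXC13 was lower (-0.85). HOXA13 (2.81 and 1.93) and HOXC8 (4.42 and 3.76) were higher in the inhibitor experiment. The HOX list there had 7 higher and 5 lower of 17 in titled NT (median 0.08). In titled C5i it had 4 higher and 6 lower of 15 (median -0.31). Imprinted genes, expressed from 1 parental copy, had 8 higher and 6 lower of 16. PEG3 was at 24.4 and 22.2 CPM in C4-2 and 1500 and 1530 in LNCaP (-6.02 ± 0.096, adjusted p = 3.8e-07), and its neighbour ZIM2 had at most 0.0842 CPM in C4-2. PEG3 was at 6.50 and 5.91 CPM in titled NT and 0.810 and 0.776 in titled C5i against 842 and 775 in LNCaP DMSO. NAP1L5 was at 3.98 and 3.27 CPM in LNCaP with no count in C4-2, and MEST was higher (1.35).

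Cancer-testis antigens were lower in 10 of 14 cases, 7 of them at least 2-fold, and higher in 3. Of all genes 36.1% were lower, 14.1% at least 2-fold lower, and 37.2% higher. The list median was -2.45, or -2.35 with genes at their counting bound, and -1.93 with the trend removed. MAGEA4 had 1 count in C4-2 against 364 in LNCaP, a ratio of 309 (95% counting interval 55.2 to 12300). MAGEA1 (105 and 112 against 49.3 and 50.7 CPM, 1.12) and BRDT, a testis bromodomain protein (11.7 and 11 against 0.228 and 0.213 CPM, 5.65), were higher. MAGEA4 passed the low-count filter mainly through LNCaP, and BRDT mainly through C4-2, so their directions are a description only. MAGE genes are close copies of each other. In the titled NT difference 10 of 12 cancer-testis antigens were higher and 1 lower, where 29.5% and 34.1% of all genes were (median 0.54, MAGEA1 4.21, MAGEA4 -1.27). In titled C5i 4 of 10 were higher and 4 lower, where 37.4% and 38.7% of all genes were (median 0.12). Of 9 metallothioneins, 4 were tested and all 4 were lower, where 36.1% of all genes were. Their median was -1.72, with MT1X at 12 and 16.5 against 38.4 and 41.9 CPM. MT1G, with no count in C4-2, passed the low-count filter through LNCaP, so its direction is a description only. Transporters and enzymes of drugs had 8 of 13 higher and 1 lower. CYP1B1 was at 8.92 and 7.83 CPM in C4-2 with 1 count in LNCaP, and CYP4F8 at 18.9 and 24 against 0.0652 and 0.249 CPM, while CYP3A5 was under 1 CPM. Neuropeptide and monoamine genes had GAL, galanin, higher (0.59), CALCA under 1 CPM, and DDC (15.1 and 13.7 against 31.5 and 29.5 CPM, -1.08) lower. DDC was lower in the inhibitor experiment too (-2.74 and -4.51).

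The counts for genes of the study's target complex changed when the GC and length trend was removed. The COP9 signalosome removes the ubiquitin-like protein NEDD8 from cullins and so controls cullin-RING ubiquitin ligases. Of 27 genes for its subunits, cullins and neddylation, 18 were higher and 7 lower in C4-2 (median 0.50). With the trend removed 13 were higher and 9 lower (median 0.01). Of all genes 37.2% were higher and 36.1% lower, or 34.3% and 34.8% with the trend removed. COPS5, the gene of CSN5 itself, was at 128 and 116 CPM in C4-2 and 54.5 and 53.8 in LNCaP (1.18 ± 0.094, adjusted p = 4.8e-05), 1.28 with the trend removed. It did not differ beyond the test in the inhibitor experiment (0.16 and -0.18). In the shCSN5 libraries it was at 10.8 and 10.8 CPM in C4-2 and 3.08 and 1.86 in LNCaP. COPS2 (1.86) and DCUN1D1 (1.68) were higher, at 0.68 and 0.52 with the trend removed. UBE2M (-0.93) and COPS6 (-0.68) were lower, at -0.25 and -0.28 with the trend removed.

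**Figure D4:**
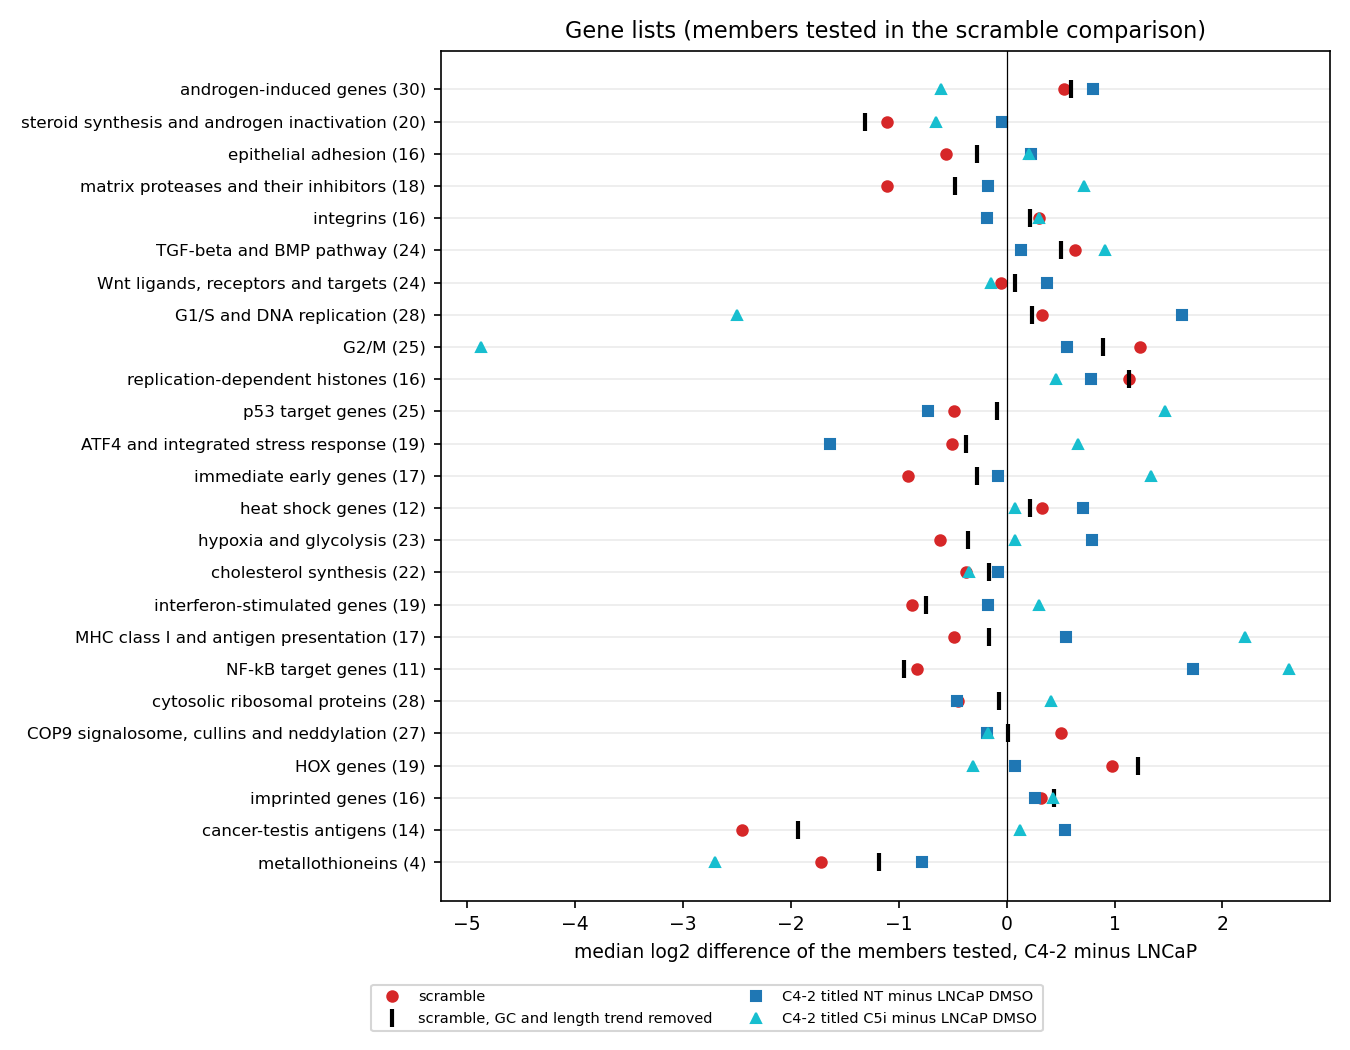
Median log2 difference, C4-2 minus LNCaP, of the tested members of 25 gene lists (number tested in parentheses). Circles are the scramble comparison, bars the same with the GC and length trend removed, squares and triangles the titled NT and titled C5i differences. The G2/M list has medians of 1.24, 0.89, 0.56 and -4.87, and the COP9 list moves from 0.50 to 0.01 when the trend is removed.

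How far the scramble differences were found again depended on their size. Of 9769 genes called in the scramble comparison and tested in the titled NT difference, 2947 (30.2%) were called there in the same direction and 3365 (34.4%) in the opposite one. In the titled NT difference 63.6% of all genes tested were called, and in the titled C5i difference 76.1%. Among 923 genes with at least a 4-fold scramble difference, 598 (64.8%) were called in the same direction and 119 (12.9%) in the opposite one. Among 373 with at least an 8-fold difference, 282 (75.6%) were called the same way and 38 (10.2%) the other way. For the titled C5i difference the corresponding shares were 31.3% and 45% over all sizes, and 72.2% and 13.9% of 338 genes at 8-fold or more. With the trend removed from both experiments, 51.4% of called genes kept direction in the titled NT difference and 27.4% opposed it. Genes called with at least 4-fold differences in both, in the same direction, made up 36.5% of the scramble list and 37.8% of the titled NT list, in a comparison where 8.46% of all genes were called at that size.

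**Figure D5:**
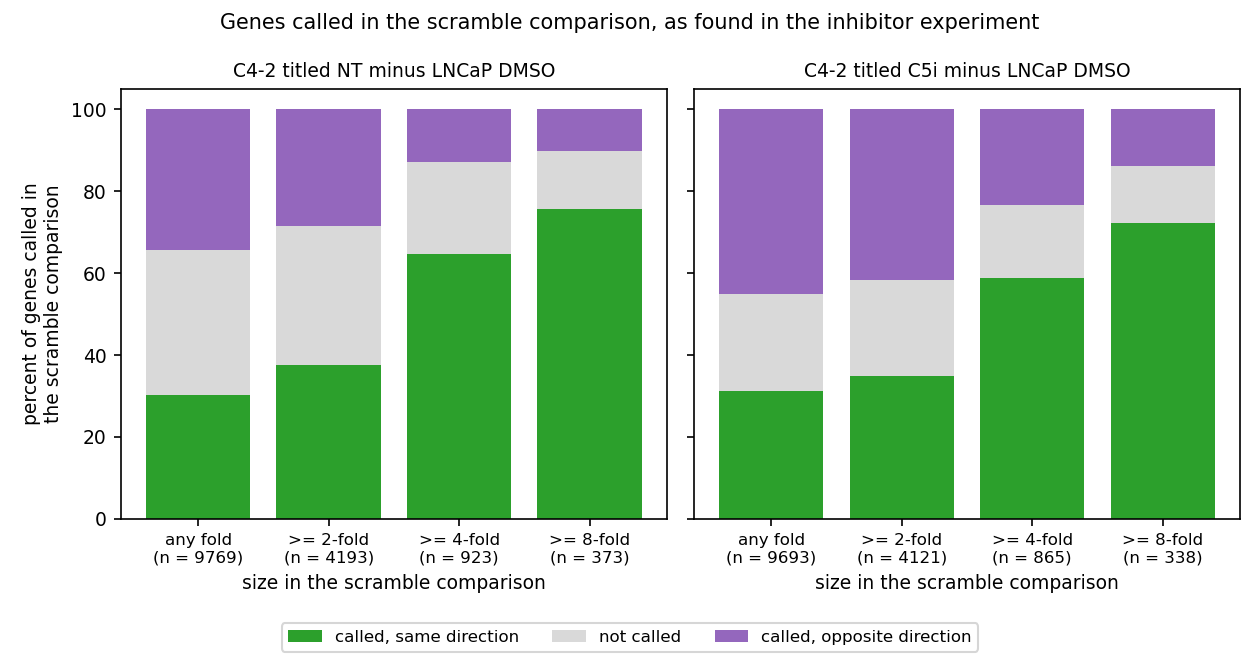
Share of the genes called in the scramble comparison (vertical axis, percent) that were called in the same direction, not called, or called in the opposite direction in the titled NT (left) and titled C5i (right) differences, by the size of the scramble difference. The same-direction share rises from 30.2% over all sizes to 75.6% at 8-fold or more for titled NT.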

How the data were processed

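The authors deposited whole-number counts per gene and library, made with Partek per the submitters' processing notes. For aligner, build, strand setting and gene annotation: not given in the sources used here. Both scramble tables list the same 57445 Ensembl identifiers, of which 89.6% matched a reference gene name. GC content and length are those of the longest GENCODE 29 transcript (97.6% of genes tested). The inhibitor tables list symbols, and 14461 were joined after older names were updated. No column of per-sample values lacked a sample (0). Counts were tested in R 4.3.3 with edgeR 4.0.16: TMM factors, a filterByExpr filter (minimum count 10), the quasi-likelihood F test on 4 libraries with 2 residual degrees of freedom, and Benjamini-Hochberg adjustment at 0.05. The SE is the absolute log2 difference divided by the square root of F. CPM values use the TMM library sizes. The report gives the depth of the scramble libraries; the 6 inhibitor libraries used held 29477194 to 40638334 counts, and counting intervals and floors cover counting error only. The steps were tested on simulated data with known fold changes. The trend-removed fit (lowess, span 0.3) was chosen after seeing the data.

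Members and lists were chosen with earlier results of these data known. Genes named are line markers, the 10 largest increases and decreases among called genes with non-overlapping groups and a mean of at least 5 CPM, from each of 46 lists the 2 called members of each direction with the smallest adjusted p, and the tested members of the lineage factor and steroid lists. Some genes this rule selects are not reported here. Genes named beyond that rule were chosen after their values were seen: VIM, CD44, AXL, CAV1, TGFBI, KRT5, KRT14, TP63, FKBP5, KLK2, HOXC8, ZIM2, COPS5, the genes counted in only 1 line, and the families in the closing observations.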

Additional observations from a re-analysis of the deposited data

Results flagged for a closer look

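Of the 204 genes named by rule, 4 differed at least 2-fold one way between C4-2 and LNCaP in the scramble comparison. They differed at least 2-fold the opposite way in both differences of the inhibitor experiment, with no overlap of libraries in either. PIGR, named beyond that rule, also changed direction, with 1 count in C4-2 against 311 in LNCaP, then 8.09 and 5.67. The change of direction itself was not tested. IL32, a cytokine induced by NF-kB, differed by -3.85 in the scramble comparison and by 3.43 and 6.03 in the inhibitor experiment. It was at 0.267 and 0.505 CPM in C4-2 and 6.04 and 5.08 in LNCaP, then at 38.3 and 39.0 (titled NT) and 221 and 237 (titled C5i) against 3.41 and 3.48 in LNCaP DMSO. NFKB2, an NF-kB subunit, differed by -1.61, then 1.18 and 2.35. LAMB3, a laminin chain, differed by -1.81, then 2.23 and 6.47. The histone gene H2AC11 differed by 3.0, then -1.25 and -2.33.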

How the results depend on the processing

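Of the 204 named genes, 8 changed sign when the GC and length trend was removed: TMPRSS2 (0.19), STEAP1 (-0.01), CTNNB1 (-0.13), B2M (-0.16), GATA2 (0.37), NCOA2 (-0.25), NCOA3 (-0.30) and HSD17B4 (-0.22). The trend removal was chosen after seeing the data. With DESeq2 1.42.0, 7 were no longer called, among them CXCR4, SNORD3A, SPRY2, HSD3B1, AKR1C3 and HSD17B6. CAMKK2, CTNNB1, FOSL2 and SRD5A3 lost their call without either LNCaP library. The number of genes called in the scramble comparison was 11102 with RLE size factors, 11055 with total counts, 11915 without the low-count filter, 9796 with DESeq2, 11007 with 1 spread estimated over every shRNA library and 10466 with the trend removed. Leaving out 1 library gave 9028 to 12580 calls in the scramble comparison, 7247 to 8380 for titled NT and 8851 to 10929 for titled C5i. With total counts as the scaling, the titled C5i difference had 3952 genes higher and 6500 lower in C4-2, against 5107 and 5288, and its median over all genes moved to -0.25.

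The labels number the replicates alike but do not say that a number marks a shared culture or day. Deviations of same-numbered libraries correlated at -0.078 (scramble), -0.66 (titled NT) and 0.388 (titled C5i). With the replicate block, 11054, 7456 and 11246 genes were called; NCOR1 lost its call and SPDEF gained one. Crossing the numbers in the titled NT difference, chosen after seeing the data, gave 11163 calls.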

Other observations

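A pair of gene families outside the lists, noticed in the values and so given without a test, had members far lower in C4-2. Of 16 protocadherin beta genes, clustered adhesion genes with close sequences, 8 passed the low-count filter, mainly through LNCaP, where they are high, so their shared direction is a description only. PCDHB5 was at 0.152 and 0.253 CPM in C4-2 and 26.5 and 25.8 in LNCaP, and PCDHB2 at 0.229 and 0.337 against 17.5 and 16.8. Both were lower in the inhibitor experiment (PCDHB5 -6.28 and PCDHB2 -3.70 in titled NT). Of the genes of HLA class II, which present antigen to helper T cells, 5 passed the filter, most of them through LNCaP. HLA-DMB was at 0.305 and 0.337 CPM against 13.3 and 12.6, and HLA-DQB1 at 0.686 and 0.674 against 15.6 and 15.8. HLA-DMB (-3.93 and -7.18) and HLA-DQB1 (-2.05 and -2.22) were also lower in the inhibitor experiment.

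By chromosome, with the trend removed, the median difference was highest on chromosomes 13 (0.41), 8 (0.37) and 9 (0.23) and lowest on 20 (-0.25), 19 (-0.21) and 4 (-0.19). With the trend left in, the scramble medians of chromosomes 13, 8 and 4 were 0.81, 0.68 and 0.27. In the titled NT difference, also with the trend left in, chromosome 13 was at -0.21, 8 at -0.24 and 4 at -0.52. The GC slopes of these comparisons had opposite signs, so their chromosome medians are not on a like footing.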
